A study of Mus musculus with 30 samples.

Results

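The genes described here are 10 mouse genes of the Wnt pathway: the ligand Wnt5a, the secreted antagonists Dkk2, Dkk3, Sfrp1, Sfrp2, Frzb and Wif1, and the response gene Axin2 with the transcription factor genes Lef1 and Tcf7. They were taken by name from the 35972 genes found in both deposited RNA tables. The set was picked with RNA values of these same libraries known, although not every gene in it differed. Their RNA changes are therefore given as a description, without p-values, and where calls among them are counted nothing is read from the count. The cells were primary fibroblasts from mouse tail tendon of wildtype genotype, and in every group they were treated in medium with 0.1% serum. RNA was measured by poly(A) sequencing in 3 libraries of cells given DMSO, the solvent, 3 given 10 µM blebbistatin and 3 given 30 µM Y27632. Y27632 inhibits a kinase, whereas blebbistatin acts on non-muscle myosin II itself. Open chromatin was measured by ATAC sequencing under the same 3 treatments, with 3 libraries each. A further 12 genomic libraries, 3 in each group, carried neither drug, blebbistatin at 10 µM alone, doxycycline at 10 ng/mL alone, or both, and the labels state neither what doxycycline induced nor which assay was used for them. The series as a whole concerns the part that mechanical cues, Yap and Taz play in gene control, and no label gives the age or number of animals or the duration of treatment.

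Wnt proteins are secreted lipid-modified ligands that bind Frizzled receptors. With the co-receptors Lrp5 and Lrp6 they stabilise β-catenin, which enters the nucleus and activates genes together with TCF/LEF factors, of which Tcf7 and Lef1 encode members. Secreted Frizzled-related proteins (Sfrp1, Sfrp2 and Frzb) and Wif1 bind the ligands themselves, whereas Dickkopf proteins such as Dkk2 bind Lrp5 and Lrp6. Axin2 is a target of β-catenin and a negative feedback component of the complex that degrades it. Wnt5a mostly acts through branches that do not need β-catenin, with Ror and Ryk receptors. In tendon-derived cells, Wnt signalling through β-catenin has been reported to lower the expression of tendon genes.

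The 250 bases before the start of Dkk2, Sfrp2 and Axin2 are shown because Dkk2 and Sfrp2 were both lower and Axin2 was higher with blebbistatin. The sequences are from RefSeq on GRCm38.p6, in lower case from 5′ to 3′ on the plus strand, which is the strand of all 3 genes, and capitals mark CpG dinucleotides. They cover chr3:132085042-132085291 (Dkk2), chr3:83766071-83766320 (Sfrp2) and chr11:108920099-108920348 (Axin2).
Dkk2: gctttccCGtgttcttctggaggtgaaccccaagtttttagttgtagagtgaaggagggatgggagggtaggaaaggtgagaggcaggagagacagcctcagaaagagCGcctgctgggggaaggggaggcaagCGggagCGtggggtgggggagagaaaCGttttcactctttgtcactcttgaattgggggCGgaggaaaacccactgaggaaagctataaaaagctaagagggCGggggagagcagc
Sfrp2: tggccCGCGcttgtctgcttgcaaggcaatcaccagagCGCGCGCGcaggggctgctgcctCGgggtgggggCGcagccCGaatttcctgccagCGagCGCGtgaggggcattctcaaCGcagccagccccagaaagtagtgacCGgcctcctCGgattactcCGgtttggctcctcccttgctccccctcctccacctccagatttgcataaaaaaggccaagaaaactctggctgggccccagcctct
Axin2: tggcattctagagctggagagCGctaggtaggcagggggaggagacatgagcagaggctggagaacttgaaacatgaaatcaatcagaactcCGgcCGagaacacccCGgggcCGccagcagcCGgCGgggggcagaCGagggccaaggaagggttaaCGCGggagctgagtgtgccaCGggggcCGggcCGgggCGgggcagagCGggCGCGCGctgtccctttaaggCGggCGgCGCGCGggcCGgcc
The Dkk2 stretch held 7 CpG and 55.6% G or C, that of Sfrp2 16 CpG and 63.6%, and that of Axin2 24 CpG and 69.2%. The median over all 32851 promoters of the RefSeq table was 6 CpG and 52.4%. Of the 10 genes, 7 had an entry in that table, with 11 starts in all, and Dkk3, Sfrp1 and Wnt5a had none. The letters ATCAAAG, bound by TCF/LEF factors, were in 0 of the 11 stretches on either strand and in 3.21% of all promoters. GGAATG, bound by TEAD factors, was in 0 of 11 against 12.6%, and TGANTCA, bound by AP-1, in 0 of 11 against 6.75%. Matches were counted separately for each motif, and no motif is contained in another. TATAAA was in 4 of the 11 stretches against 12.4%. Its first base lay at -32 from the Dkk2 start, in the orientation of the gene. The matches in a stretch of Lef1 (-231), of Tcf7 (-8) and of Wif1 (-232) were the reverse complement, TTTATA. Stretches of the same gene can overlap, as for Lef1, so the 11 are not separate observations and nothing is read from this share. A match of letters is a description and does not show binding. None of the chromatin sites listed below overlapped any of the 11 stretches (0 sites).

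The 9 RNA libraries held 23375386 to 37061737 reads in genes. Levels are given as the authors' normalised counts, which were scaled separately in the blebbistatin and Y27632 tables, so the DMSO libraries have slightly different values in each. A change is a difference of log2(normalised count + 1), with its standard error (SE). The labels do not say whether replicates were separate cultures or animals, so all errors and p-values measure the spread between these libraries, which may be technical. Each of the 10 fibroblast and tendon markers was present, with a summed level of 30682 to 32703 CPM (reads scaled to library size, with TMM factors over the 9 libraries) in DMSO, 28859 to 32026 with blebbistatin and 32363 to 33814 with Y27632. The 6 leukocyte markers summed to 210 to 233 CPM in DMSO, 302 to 342 with blebbistatin and 307 to 349 with Y27632, most of it Lyz2, with the T cell gene Cd3e at 0 in all libraries. The 4 endothelial markers summed to 119 to 121 CPM in DMSO, 75.4 to 84.5 with blebbistatin and 107 to 114 with Y27632, most of it Tek. The other endothelial markers did not follow Tek: Cdh5 was at 2.21 to 2.74 CPM in DMSO and 2.89 to 3.34 with blebbistatin, Kdr at 0.37 to 0.66 and 0.70 to 0.97, and the defining marker Pecam1 at 0.13 to 0.52 over all libraries. The 4 mural cell markers summed to 75.8 to 83.9 CPM in DMSO, 85.9 to 97.7 with blebbistatin and 83.4 to 104 with Y27632, the 4 cartilage and bone markers to 5.20 to 6.24, 7.89 to 8.71 and 8.15 to 8.37, and the 3 Schwann cell markers to 4.38 to 5.23, 5.76 to 6.21 and 5.15 to 6.23. The part of these marker changes in the results below was not tested. In bulk RNA, fewer cells of a type and less RNA per cell cannot be told apart.

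Among the antagonists, Dkk2 and Sfrp2 were lower than in DMSO with blebbistatin, whereas with Y27632 both were above DMSO. Dkk2 had normalised counts of 6067, 6306 and 6193 in the DMSO libraries and 3459, 3515 and 3397 with blebbistatin. All blebbistatin libraries were below all DMSO libraries, and the mean went from 6188 ± 120 to 3457 ± 59.1 (SD, n = 3), or 55.9% of DMSO. The log2 change was -0.84 (SE 0.032). In the Y27632 table, Dkk2 was at 6307, 6546 and 6436 in DMSO and at 10561, 10537 and 11120 with Y27632, so the groups were again apart, in the opposite direction. The mean went from 6430 ± 120 to 10739 ± 330 (SD, n = 3), 1.67 times DMSO, and the log2 change was 0.74 (SE 0.032).

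Sfrp2, which encodes a secreted Frizzled-related protein of fibroblasts, had normalised counts of 3891, 4018 and 3596 in DMSO and 1457, 1691 and 1405 with blebbistatin. The groups did not overlap, and the mean went from 3835 ± 217 to 1518 ± 152 (SD, n = 3), 39.6% of DMSO, with a log2 change of -1.34 (SE 0.064). Of the 9 genes with enough reads, Sfrp2 had the lowest log2 change with blebbistatin. With Y27632 it was at 4246, 4538 and 4546 normalised counts against 4045, 4171 and 3737 in DMSO. These values lay close together without overlapping, and the log2 change was 0.16 (SE 0.043).

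Dkk3, a divergent member of the Dickkopf family, was higher with both inhibitors. Its normalised counts were 3421, 3420 and 3427 in DMSO and 5614, 5703 and 6184 with blebbistatin, without overlap. The mean went from 3422 ± 3.87 to 5834 ± 307 (SD, n = 3), and the log2 change was 0.77 (SE 0.038). The DMSO libraries were unusually close to each other in CPM, with a coefficient of variation of 0.296%, below the 1.77% expected from counting alone. With Y27632, Dkk3 was at 4239, 4188 and 4236 normalised counts against 3556, 3550 and 3561 in DMSO, with a log2 change of 0.25 (SE 0.029). All Y27632 libraries were above all DMSO libraries, by less than with blebbistatin.

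The remaining antagonists differed less from DMSO, or were too low to compare closely. Sfrp1 was at 326, 302 and 317 normalised counts in DMSO and 272, 289 and 277 with blebbistatin, a log2 change of -0.17 (SE 0.073). With Y27632 it was at 310, 303 and 290 against 339, 314 and 329, a log2 change of -0.12 (SE 0.071). Treated libraries were below DMSO in both tables without overlap. Frzb, another Frizzled-related protein, had 137, 143 and 162 normalised counts in DMSO and 162, 138 and 141 with blebbistatin, and 168, 143 and 115 with Y27632 against 142, 149 and 168, with overlap in both tables. Its log2 changes were -0.002 (SE 0.112) and -0.12 (SE 0.135). Wif1, which binds Wnt ligands outside the cell, was low, at 14.9, 22.1 and 19.5 normalised counts in DMSO and 19.7, 38.6 and 23.9 with blebbistatin. With Y27632, Wif1 was at 22.6, 29.2 and 34.6 against 15.5, 22.9 and 20.3. The groups overlapped in both tables, with log2 changes of 0.48 (SE 0.289) and 0.53 (SE 0.254), and between 15 and 47 reads per library limit what can be seen for this gene.

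The ligand Wnt5a was lower with both inhibitors. Its normalised counts were 602, 628 and 586 in DMSO and 436, 518 and 446 with blebbistatin, and the mean went from 605 ± 21.1 to 467 ± 44.7 (SD, n = 3). In the Y27632 table it was at 626, 652 and 609 in DMSO and at 490, 476 and 509 with the inhibitor. Neither treatment overlapped with DMSO, and the log2 changes were -0.38 (SE 0.072) and -0.35 (SE 0.057).

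Axin2 was higher with blebbistatin than in DMSO. It had normalised counts of 72.5, 68.4 and 63.2 in DMSO and 140, 144 and 149 with blebbistatin, without overlap. The mean went from 68.0 ± 4.66 to 144 ± 4.32 (SD, n = 3), a ratio of 2.12, and the log2 change was 1.08 (SE 0.119). With Y27632 the values were 78.2, 91.2 and 98.5 against 75.4, 71.0 and 65.7 in DMSO. The lowest treated library was just above the highest DMSO library, and the log2 change was 0.33 (SE 0.141). Tcf7, one of the TCF/LEF factors, was at 30.8, 45.2 and 27.6 normalised counts in DMSO and 33.2, 45.2 and 50.5 with blebbistatin, and at 49.6, 46.0 and 36.7 with Y27632 against 32.0, 47.0 and 28.7. The groups overlapped in both tables, with log2 changes of 0.32 (SE 0.237) and 0.31 (SE 0.221). Lef1, another such factor, had 0 reads in all 3 DMSO libraries, 0, 3 and 3 reads with blebbistatin and 1, 2 and 0 with Y27632. A count of 0 allows up to 3 reads, or 0.110 to 0.128 CPM in the DMSO libraries, for counting error only, so Lef1 was not detectable above that depth in any group and was not tested.

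**Figure D1:**
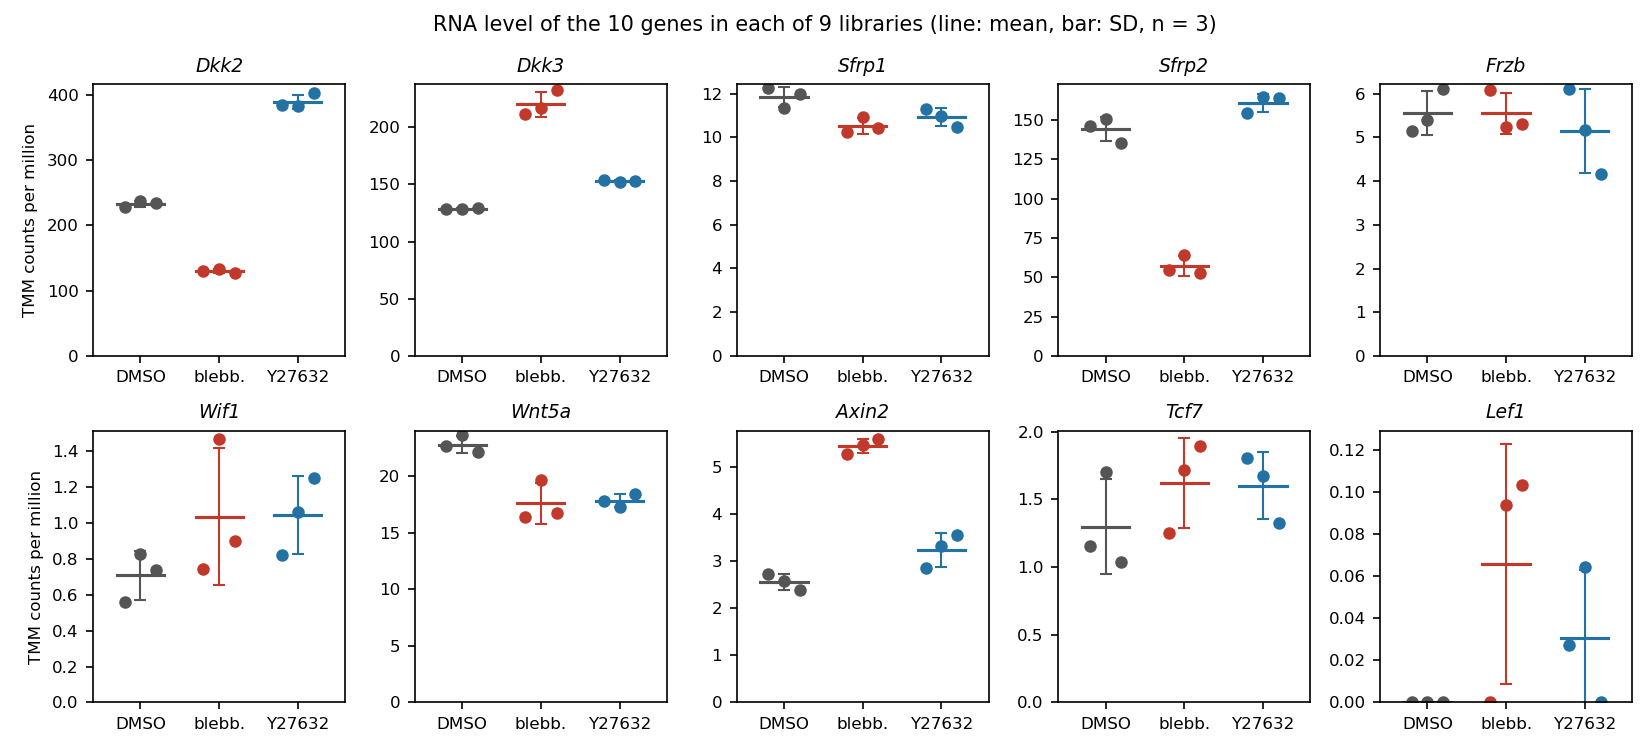
RNA level of each gene in TMM-scaled CPM (vertical axis, from 0) in the 9 libraries, by treatment. Points are libraries, long lines means and bars the SD (n = 3). Dkk2 and Sfrp2 are lowest with blebbistatin, Dkk3 and Axin2 are highest there, and Frzb, Wif1, Tcf7 and Lef1 overlap between all groups.

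Of the 10 genes, 9 passed the minimum mean of 10 normalised counts in each table. With blebbistatin, 2 were called higher and 3 lower by limma at an adjusted p under 0.05, against 53.0% of 14882 genes called, 26.1% higher and 26.9% lower. With Y27632, 3 were called higher and 1 lower, against 35.9% of 14833 genes, 18.1% higher and 17.8% lower. Without Y27632 replicate 3, Sfrp2 was not called and 3 of the 9 were. Since the genes were chosen from these contrasts, these counts describe them only. Groups did not overlap for 6 of 10 genes with blebbistatin, 2 higher and 4 lower, where 60.2% of all genes tested did not overlap, 30.0% higher and 30.2% lower. With Y27632 they did not overlap for 6 of 10, 4 higher and 2 lower, against 48.1%, 24.4% higher and 23.7% lower. The median absolute log2 change of the 9 genes was 0.48 with blebbistatin and 0.31 with Y27632, beside 0.22 and 0.15 over all genes tested. These medians are the values of Wif1 (SE 0.289) and Tcf7 (SE 0.221), low genes whose groups overlapped. As the genes were chosen from these contrasts, nothing is read from the medians.

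**Figure D2:**
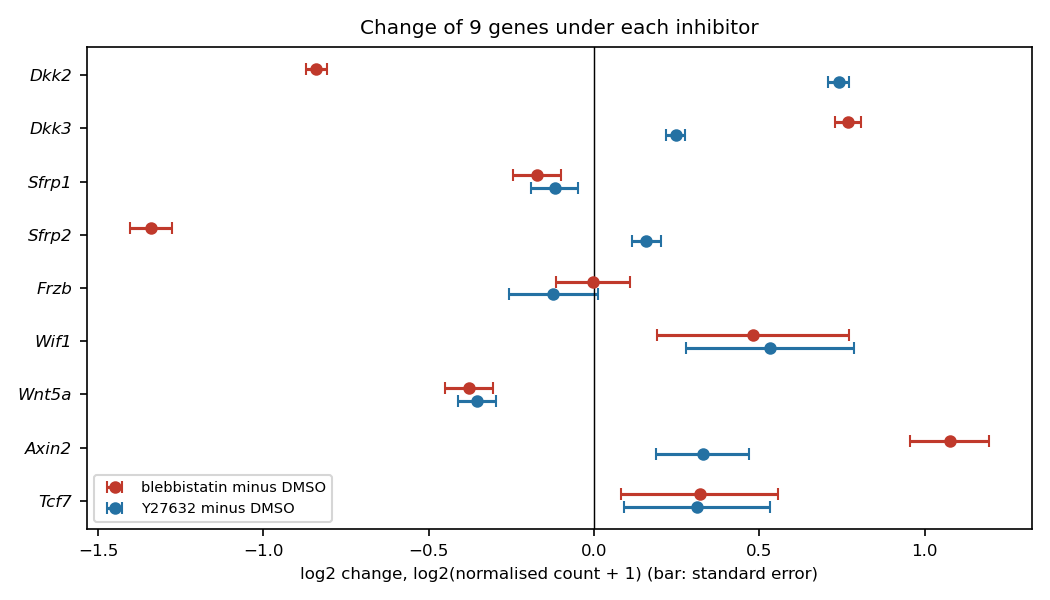
Log2 change on the log2(normalised count + 1) scale (horizontal axis) of the 9 genes with enough reads, under blebbistatin and under Y27632, each against DMSO. Points are fitted changes and bars their standard errors; Dkk2 lies at -0.84 and 0.74 and Sfrp2 at -1.34 and 0.16, on opposite sides of 0, and both comparisons use the same DMSO libraries.

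The inhibitors differ in dose as well as in target, so the direct comparison of blebbistatin with Y27632 describes these libraries at 10 µM and 30 µM. In CPM over all 9 libraries, Dkk2 averaged 233 in DMSO, 130 with blebbistatin and 390 with Y27632, and no library of 1 group overlapped another. The log2 difference, blebbistatin minus Y27632, was -1.57 (SE 0.031) for Dkk2 in edgeR. Sfrp2 averaged 144, 57.2 and 161 CPM in the same order, with a difference of -1.48 (SE 0.060). Dkk3 averaged 129, 220 and 153 CPM, with a difference of 0.53 (SE 0.035), and Axin2 averaged 2.56, 5.44 and 3.24 CPM, with a difference of 0.77 (SE 0.116). For these 4 genes the 3 groups were apart. Wnt5a averaged 22.8 CPM in DMSO, 17.6 with blebbistatin and 17.8 with Y27632, and Sfrp1 averaged 11.9, 10.5 and 10.9, and for both the inhibitor groups overlapped. Frzb, at 5.55, 5.55 and 5.15 CPM, Wif1, at 0.709, 1.04 and 1.04, and Tcf7, at 1.30, 1.62 and 1.60, overlapped between all groups. In this comparison edgeR called 2 of the 9 genes higher and 2 lower, against 53.1% of 14925 genes, 26.9% higher and 26.2% lower, and again nothing is read from the count.

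The gene most alike in pattern was found for each of the 7 genes with a mean of at least 100 reads at the average depth of the 9 libraries, by Pearson's r of log2(CPM + 1) over the 9 libraries among 11460 genes. It was Slc31a1 for Dkk2 (r = 0.997), Abhd5 for Dkk3 (r = 0.998), Fam43a for Sfrp2 (r = 0.997) and Pip4k2c for Axin2 (r = 0.997). For Wnt5a it was Mfhas1 (r = 0.987), for Sfrp1 2310061I04Rik (r = 0.970) and for Frzb Mrm2 (r = 0.938). These values describe the libraries, which share 3 treatment groups, and the best of many genes is high by selection. Axin2 reached the minimum only through the blebbistatin libraries, since its mean was 68.0 normalised counts in DMSO.

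The rest of the pathway was examined in 103 further genes in lists by role. The lists were chosen with earlier results of these data known, so their shares of called genes are a description. With blebbistatin, 74 were tested and 48 were called, 19 higher and 29 lower, or 64.9% against 53.0% of all genes. With Y27632, 76 were tested and 34 called, 12 higher and 22 lower, or 44.7% against 35.9%. The median log2 change was -0.06 in both, beside 0.00 over all genes. Between the inhibitors, 45 of 75 were called by edgeR, 22 higher and 23 lower with blebbistatin, or 60.0% against 53.1%.

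Among the receptors and the R-spondin system, more genes were called lower than higher with each inhibitor. Of 20 tested receptor, co-receptor and R-spondin genes of 25, 11 were lower and 2 higher with blebbistatin, and 9 were lower and 4 higher with Y27632, and 7 were not called in each comparison. Over all genes tested, 26.9% were lower with blebbistatin and 17.8% with Y27632. The list median was -0.24 and -0.13. Lgr5, an R-spondin receptor and itself a Wnt target, had 518, 557 and 597 normalised counts in DMSO and 86.2, 69.1 and 96.5 with blebbistatin, and all treated libraries were far below DMSO. Its log2 change was -2.73 (SE 0.119, limma adjusted p = 1.97e-09), and with Y27632 it was -0.46 (SE 0.064, adjusted p = 0.000121). Rspo3, which encodes an R-spondin that amplifies Wnt signalling, had 2524 ± 64.8 normalised counts in DMSO and 851 ± 116 (SD, n = 3) under blebbistatin, with log2 changes of -1.58 (SE 0.076, adjusted p = 4.72e-09) and, with Y27632, -0.53 (SE 0.036, adjusted p = 1.85e-07). Rspo2, a related R-spondin, was lower with blebbistatin, at -0.38 (SE 0.043, adjusted p = 1.04e-05), and higher with Y27632, at 0.58 (SE 0.046, adjusted p = 7.24e-07), and the difference between the inhibitors was -0.95 (SE 0.046, edgeR adjusted p = 8.01e-10). Ror1, a receptor for Wnt5a, changed by -1.72 (SE 0.099, adjusted p = 2.27e-08) with blebbistatin and by -0.35 (SE 0.084, adjusted p = 0.00599) with Y27632. Ryk, another Wnt receptor and the one with most reads in this list, changed by -0.65 (SE 0.033, adjusted p = 6.25e-09) and -0.30 (SE 0.031, adjusted p = 8.29e-06). The 2 receptor genes higher with blebbistatin, named after their values were seen, were Ror2 (0.35) and Ptk7 (0.11), and without DMSO replicate 2 only 1 of the list was called higher.

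Of the other response genes, 11 of 15 were tested. With blebbistatin 7 were lower and 2 higher, and with Y27632 6 were lower and 2 higher. Over all genes tested, 26.9% were lower and 26.1% higher with blebbistatin, and 17.8% lower and 18.1% higher with Y27632. Leaving out 1 library gave 6 to 7 lower and 1 to 2 higher with blebbistatin, and 5 to 7 lower and 1 to 2 higher with Y27632. This list shares Lgr5 and 5 further genes with the lists of receptors and antagonists. Its median was -0.56 and -0.35. Bmp4, a growth factor gene, had 636 ± 24.2 normalised counts in DMSO and 150 ± 7.06 with blebbistatin (SD, n = 3), a change of -2.07 (SE 0.074, adjusted p = 3.39e-10), and changed by -0.66 (SE 0.056, adjusted p = 1.61e-06) with Y27632. Ccn4, a matricellular protein gene named Wisp1 in the tables, had 3442 ± 183 normalised counts in DMSO and 1374 ± 18.1 (SD, n = 3) under blebbistatin, a change of -1.32 (SE 0.043, adjusted p = 1.54e-10), and changed by -0.64 (SE 0.040, adjusted p = 8.75e-08) with Y27632. The growth regulator gene Myc was lower with blebbistatin, at -0.56 (SE 0.051, adjusted p = 1.43e-06), and higher with Y27632, at 0.68 (SE 0.059, adjusted p = 1.71e-06), and the inhibitors differed by -1.24 (SE 0.059, edgeR adjusted p = 7.35e-10). Nkd2, a Wnt feedback antagonist that acts inside the cell, was higher with blebbistatin, at 0.87 (SE 0.082, adjusted p = 2.12e-06). With Y27632 it was at 0.24 (SE 0.080, adjusted p = 0.0345), a call lost without DMSO replicate 1 (adjusted p = 0.134), DMSO replicate 2 (0.0535), Y27632 replicate 2 (0.0854) or replicate 3 (0.0995), and in DESeq2 (0.0683). Cd44, a surface glycoprotein, was at 0.13 with blebbistatin (SE 0.043, adjusted p = 0.0231), a call lost without DMSO replicate 1 (adjusted p = 0.0968), DMSO replicate 2 (0.0989) or blebbistatin replicate 1 (0.102). Of the genes in this list, Axin2 being apart from it, Nkd2 and Cd44 were thus the only ones called higher with blebbistatin, and Nkd2 and Myc the only ones called higher with Y27632.

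The remaining lists were mixed. Among ligands, 6 of 18 were tested with blebbistatin and 8 with Y27632. Of these, 2 were higher and 2 lower with blebbistatin, and 1 was higher and 2 lower with Y27632. The share called was 66.7% against 53.0% of all genes with blebbistatin, and 37.5% against 35.9% with Y27632. Wnt9a was lower with both, at -0.88 (SE 0.108, adjusted p = 2.09e-05) and -0.73 (SE 0.108, adjusted p = 0.0002), and Wnt16, the ligand with most reads, was at 0.35 (SE 0.048, adjusted p = 5.47e-05) and -0.03 (SE 0.066, adjusted p = 0.718). Without any 1 of the 3 DMSO libraries, or blebbistatin replicate 2 or 3, 1 ligand rather than 2 was higher with blebbistatin. The same held without a filter, with a minimum mean of 50, in DESeq2 and with a replicate block. With that minimum mean, 0 ligands were higher with Y27632. Named after their values were seen, the other ligands called with blebbistatin were Wnt2b, at -2.16 and, with Y27632, -0.84, and Wnt11, at 0.53 and 0.73. Wls, which carries Wnt proteins to the surface, was lower with both inhibitors, at -0.16 (SE 0.028, adjusted p = 0.000388) and -0.18 (SE 0.030, adjusted p = 0.000535). Of the further antagonists, 3 of 12 were tested, and Kremen1, a Dickkopf receptor, was at 0.16 (SE 0.035, adjusted p = 0.00204) and 0.09 (SE 0.035, adjusted p = 0.0734). The 1 antagonist lower with blebbistatin, Apcdd1 (-0.35, named after its values were seen), was not called without DMSO replicate 2, DMSO replicate 3 or blebbistatin replicate 2.

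Inside the cell, 16 transducers split into 5 higher and 6 lower with blebbistatin and 2 higher and 3 lower with Y27632. With blebbistatin 68.8% were called against 53.0% of all genes, and with Y27632 31.2% against 35.9%. Leaving out 1 library gave 5 higher and 4 to 5 lower with blebbistatin, and 2 higher and 2 to 3 lower with Y27632. Ctnnb1, which encodes β-catenin, was higher with blebbistatin, at 0.32 (SE 0.027, adjusted p = 8.56e-07), and at 0.05 (SE 0.028, adjusted p = 0.156) with Y27632, and the inhibitors differed by 0.27 (SE 0.025, edgeR adjusted p = 4.89e-07). Apc2, of the complex that degrades β-catenin, was at 0.78 (SE 0.130, adjusted p = 0.000275) and -0.28 (SE 0.130, adjusted p = 0.115), with a difference of 1.09 (SE 0.131, edgeR adjusted p = 7.76e-06). Among the 12 nuclear partners, the share called was below the 53.0% of all genes with blebbistatin, and 8.33% against 35.9% with Y27632. They had 3 higher and 3 lower with blebbistatin and 0 higher and 1 lower with Y27632. That 1 gene was Bcl9l, a β-catenin co-activator, at -0.42 (SE 0.046, adjusted p = 8.25e-06) with blebbistatin and -0.40 (SE 0.044, adjusted p = 1.46e-05) with Y27632. In the planar polarity branch, 8 of 9 genes were tested. With blebbistatin 4 were higher and 0 lower, and with Y27632 3 were higher and 2 lower. The share called was below the 53.0% of all genes with blebbistatin, and 62.5% against 35.9% with Y27632. Leaving out 1 library gave 3 to 5 higher and 0 lower with blebbistatin. With Y27632 it gave 2 to 3 higher and 2 to 3 lower. With all libraries, the 4 genes higher with blebbistatin were Vangl1 and, named after their values were seen, Daam1, Daam2 and Prickle2. Vangl1, a core planar polarity membrane protein, was higher with both, at 0.78 (SE 0.048, adjusted p = 4e-08) and 0.26 (SE 0.053, adjusted p = 0.00191).

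**Figure D3:**
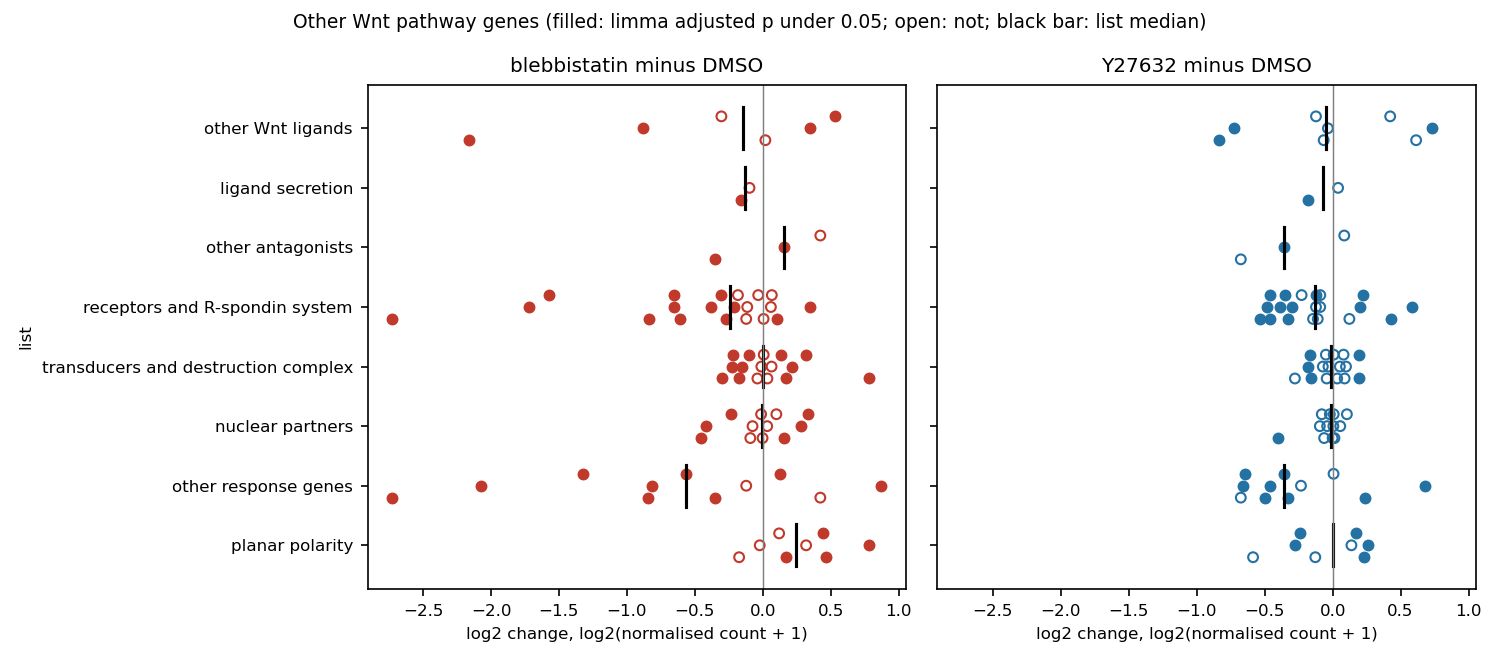
Log2 change on the log2(normalised count + 1) scale (horizontal axis) of the tested further Wnt pathway genes, by role list (vertical axis), with blebbistatin (left) and Y27632 (right), each against DMSO. Filled points passed the limma threshold, open points did not, and black bars are list medians; with blebbistatin the response genes have the lowest median, -0.56, and Lgr5 is the lowest point, at -2.73. Lgr5, Apcdd1, Notum and Znrf3 are each drawn in 2 lists.

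Chromatin sites were taken from the authors' deposited tables, where every listed site has an FDR no higher than 0.05, and in the doxycycline experiment also a log2 fold no smaller in size than 1. The tables give log2 group means and a fold per site, with no value per library, so no SD or test is given, and coordinates are on mm10 as the submitters' processing notes name it. A site belongs to the gene whose start is nearest in the authors' annotation. Of the 10 genes, 7 had a listed site and Sfrp2, Wif1 and Tcf7 had none. There were 16 entries at 13 places, 8 intergenic and 5 intronic, and 12 of the 13 places lay more than 10 kb from the start.

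For the inhibitors alone, each list held at most 1 site annotated to these genes. Few of all genes had a site in these lists, so nothing is read from these counts. The authors' deposited table of ATAC sites for blebbistatin against DMSO held 0 entries for the 10 genes, where 3.49% of genes tested in RNA had a site, and 98.2% of its 970 sites were lower and 1.75% higher. For Y27632 against DMSO the authors' deposited table held 1, where 0.832% of genes had a site. It lay at chr3:132274853-132275224, intergenic and 189.7 kb beyond the Dkk2 start, and its log2 mean went from 5.50 in DMSO to 6.96 with Y27632, a log2 fold of 1.45 with an FDR of 0.000475. Of the 207 sites in that list, 15.0% were higher and 85.0% lower. With blebbistatin in the absence of doxycycline, the authors' deposited table gave 1 site, at chr11:108886163-108886335, intergenic and 34.1 kb before the Axin2 start, where 4.3% of genes had a site. Its log2 mean went from 5.82 to 4.70, a log2 fold of -1.12 with an FDR of 0.0372, and 99.0% of the 1231 sites in that list were lower and 0.975% higher.

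The comparisons that included doxycycline held the other 14 entries. Doxycycline alone had 7 sites for 5 of the genes, all higher, and 95.8% of the 7613 sites in the authors' deposited table were higher and 4.15% lower, while 24.1% of genes had a site. Blebbistatin with doxycycline, against doxycycline alone, had 7 sites for 4 of the genes, all lower, and 99.8% of 6346 sites in the authors' deposited table were lower and 0.221% higher, while 17.4% of genes had a site. The reference column of the doxycycline list carries the name of the group with blebbistatin but no doxycycline. At 13 sites shared with the list of blebbistatin without doxycycline, it differed from the group with neither drug by a mean of -0.13 (SD 0.0044) and from the group in its header by 1.12 (SD 0.184), and the sample labels assign the list to the group with neither drug, so it is read as that group here.

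At 3 places, both lists held the same site, higher with doxycycline and lower when blebbistatin was added; these lists share the doxycycline group. All 1768 sites that appear with identical ends in both of the authors' deposited tables, 23.2% of the doxycycline list and 27.9% of the other, had these directions, so nothing particular to the 3 places is read from them. The first lay in intron 1 of 3 of Dkk2, at chr3:132100828-132101015 and 15.6 kb past the start, with log2 folds in the authors' deposited table of 1.28 (FDR 0.000235) and -1.07 (FDR 0.00139). The second lay 105.1 kb past the Sfrp1 start in intergenic sequence, at chr8:23516454-23516792, with log2 folds of 1.32 (FDR 8.45e-07) and -1.19 (FDR 1.38e-10) in the authors' deposited table. The third lay 192.8 kb before the Wnt5a start, in intron 15 of 15 of the neighbouring gene Erc2 at chr14:28312522-28312799, with log2 folds of 2.29 (FDR 5.18e-13) and -1.22 (FDR 5.45e-06) in the authors' deposited table.

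The remaining sites were listed in 1 comparison each. With doxycycline, the authors' deposited table had a site 1176 bp before the Frzb start, at chr2:80448483-80448661, with a log2 fold of 1.07 (FDR 0.00177), the only one of the 13 places within 10 kb of a start. In the same authors' deposited table, a site 20.5 kb before the Lef1 start, at chr3:131089704-131089977, had a log2 fold of 1.39 (FDR 1.77e-05), for a gene with at most 3 reads in any RNA library. A pair of Wnt5a sites in intron 19 of 19 of Erc2, at chr14:28467449-28467838 and chr14:28474171-28474456, had log2 folds of 1.05 and 1.02 in the authors' deposited table. With blebbistatin and doxycycline, the authors' deposited table listed a site in intron 3 of 6 of Dkk3, at chr7:112142634-112142934, with a log2 fold of -1.0, and intergenic sites at chr3:131867388-131867553 for Dkk2 (-1.47), chr8:23498555-23498672 for Sfrp1 (-1.39) and chr14:28731377-28731500 for Wnt5a (-1.04). No RNA from the doxycycline experiment was analysed here, so these sites cannot be set beside RNA of the same cells.

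**Figure D4:**
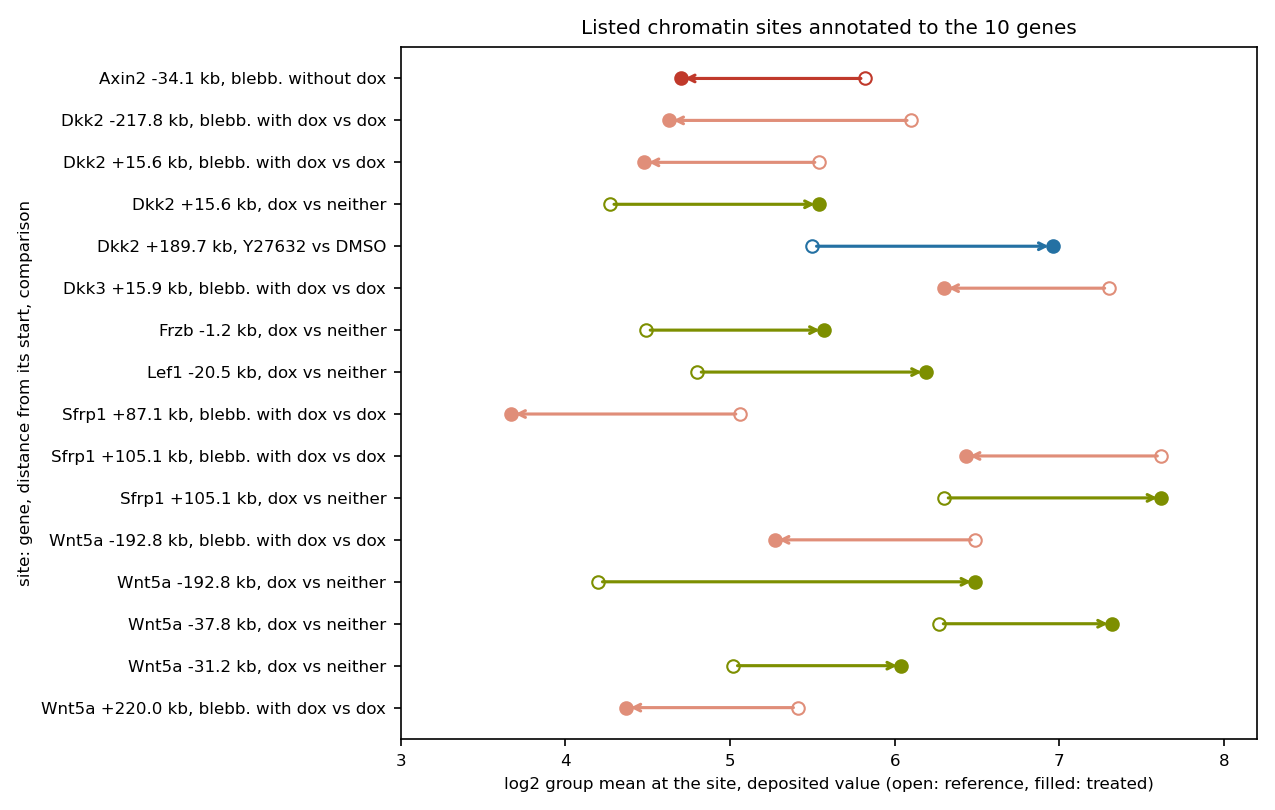
Log2 group means from the authors' deposited tables (horizontal axis) at the 16 listed entries for the 10 genes, with each gene's distance from its start in kb and the comparison at the left. Open circles are the reference group and filled circles the treated group; the 7 doxycycline entries and the Dkk2 entry for Y27632 point to higher values, and the 8 blebbistatin entries to lower values.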

How the data were processed

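RNA was measured in 9 libraries of mouse tail tendon fibroblasts, and chromatin sites in 9 ATAC libraries and 12 libraries of a doxycycline experiment. Per the submitters' processing notes, HISAT2, Picard, featureCounts, DESeq2, Bowtie2, SAMtools, MACS2, DiffBind and HOMER were used on mm10; their settings and the use of strand are not given in the sources used here. The authors deposited RNA as a signal per gene, counts divided by 1 size factor per library, as worked out from the values: 100% of them were whole multiples of a step within 0.01 of a read. In the site tables, per the file headers, the authors deposited log2 group means and folds, p-values and FDR, and each site's distance to the nearest start.

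Genes with a mean of at least 10 were tested on log2(normalised count + 1) with limma 3.58.1 (trend) in R 4.3.3, per table, and the inhibitors against each other with edgeR 4.0.16 (quasi-likelihood, TMM) on reads recovered for 9 libraries, with Benjamini-Hochberg adjustment over all genes and a call at an adjusted p under 0.05. The scripts were tested on simulated data with 1 spread setting for all genes. Far fewer genes were changed there than were called in the real libraries, so the shares recovered and the share of false calls may differ in them. For blebbistatin against DMSO, among 14886 genes, 96% of 50 genes changed by a fold of 2 were recovered, and 78% of 50 at 1.5. At a fold of 0.5, 93.6% of 47 genes were recovered, and 5.56% of all calls were false. Replicate pairs differed by more than sampling noise (chi-square per gene 2.63 to 8.06). Of the gene names, 93.1% matched the reference table. The genes and lists were chosen with earlier results of these data known. Beside the 10 genes, those named are, per comparison with DMSO, the called genes with an absolute log2 change of at least 0.5 and a mean of at least 100 (at most 5 highest and 5 lowest), and the gene with most reads in each list; the most alike gene is the one with the highest Pearson's r. Sites were assigned by the authors' annotation. Alternatives were other pseudocounts, filters, tools and a replicate block, leaving out each library, and stricter site limits.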

Additional observations from a re-analysis of the deposited data

How the results depend on the processing

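Under the other pseudocounts, filters and tools tried, the counts called over all genes and over all further pathway genes stayed within 1.5 times those reported. Small counts of single lists could move by more, such as ligands higher with blebbistatin, from 2 to 1. In the settings that kept every library the log2 changes of the 9 genes with enough reads kept their direction except Wif1 between the inhibitors. That difference was at 0.04 (SE 0.268) and just below 0 with limma and with a replicate block. Leaving out 1 library also turned the sign of changes near 0, for Frzb in each comparison and for Wnt5a, Wif1 and Tcf7 between the inhibitors only. None of these changes was called. Against DMSO, Wnt5a stayed lower in these fits, at -0.46 to -0.33 with blebbistatin and -0.38 to -0.33 with Y27632. On the recovered reads, edgeR called 7924 genes for blebbistatin and 5354 for Y27632, and DESeq2 6838 and 4268. Leaving out each library in turn gave 6994 to 7394 called genes for blebbistatin, 4304 to 4839 for Y27632 and 7160 to 7983 between the inhibitors, with fewer samples in each fit. For the further pathway genes it gave 15 to 19 higher and 26 to 28 lower with blebbistatin, 10 to 12 higher and 20 to 23 lower with Y27632, and 18 to 22 higher and 22 to 25 lower between the inhibitors. Where this left a group of 2, the limma and edgeR fits pooled the spread. Among single genes, Kremen1 between the inhibitors was at 0.09 (SE 0.031, edgeR adjusted p = 0.0325) and lost its call in most alternatives, for example with DESeq2 (adjusted p = 0.0891) and without a filter (0.15); the cause was not tested.

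Same-numbered libraries did not pair: the correlation of their deviations from the group means was -0.16, 0.05 and 0.05 for blebbistatin and -0.21, -0.05 and -0.10 for Y27632. A replicate block gave 7604 called genes for blebbistatin, 4633 for Y27632 and 7699 between the inhibitors, and 18 and 28, 12 and 21, and 20 and 23 further pathway genes higher and lower in the same order.

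Of the site counts, the 1 Y27632 site became 0 within 100 kb of the start, the 1 site of blebbistatin without doxycycline became 0 under an FDR limit of 0.01, and the 7 sites of blebbistatin with doxycycline became 3 within 100 kb, because those limits admit fewer sites. Depth limited Lef1, Wif1 and Tcf7 most.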
